A study of Mus musculus with 6 samples.

Results

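The dystrophin-associated complex joins the actin cytoskeleton to the extracellular matrix across the cell membrane. Dystroglycan, made from Dag1, is cut into an outer chain that binds laminin through its sugars and an inner chain that binds dystrophin (Dmd) or its autosomal relative utrophin (Utrn), and the sarcoglycans with sarcospan (Sspn) form a subcomplex beside it. In striated muscle the sarcoglycan unit holds alpha-sarcoglycan (Sgca), while in other tissues the close relative epsilon-sarcoglycan (Sgce) can take its place, and loss of the complex causes muscular dystrophies.

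The genes described are Sgca, Sgcb, Sgcd, Sgce, Dag1, Dmd, Utrn and Sspn in cultured mouse bone marrow stromal cells. They were found by the gene name given to each non-control probe, which gave 29 of 56605 different probes for 8 of 37074 gene names. The set was picked because Sgca fell below background in knockout cells and because Sgca lies beside Col1a1 on chromosome 11. The Sgca values are therefore given as a description with no test, and the other 7 genes were added because their products share the complex.

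RNA came from stromal cells of mice that lack the long non-coding RNA NONMMUT002667 (KO, 3 samples) and of wild-type mice (WT, 3 samples), all labelled male, with the strain, the ages and the way the gene was deleted not given in the sources used here. Femoral cells were sorted as Sca-1+ CD29+ CD45- CD11b-, grown in culture, and measured with 1 Cy3 array per sample. Titles, source names and organism all name mouse stromal cells, whereas blood is named in the free-text description and in the protocol for RNA extraction. The samples of a group are numbered without a statement of how many animals each held, so the p-values rest on the spread among the 6 samples, which may be technical.

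No spot carried a NONMMUT name (0 of 59305 non-control spots), so the deletion was not checked on its target. The sort markers Ly6a and Itgb1 were well above background on all 6 arrays, and so were all 14 macrophage markers examined, among them Ptprc (CD45) and Itgam (CD11b), which the sort should have removed. Xist was clearly detected in KO replicate 1 and WT replicate 3, against the label male. All 6 arrays lay on 1 slide and in 1 scan, with the KO arrays in row 2 and the WT arrays in row 1, so slide row and genotype cannot be told apart. Between 49.0% and 53.0% of spots were well above background on KO arrays, and between 54.3% and 56.7% on WT arrays. In bulk RNA, fewer cells of a type and less RNA per cell cannot be told apart.

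Sgca is read by 2 probes of 60 bases on the minus strand, both taken from its RefSeq mRNA, and they carry the value for which the set was picked. In the genome they are 8 bases apart, at chr11:94824546-94824605 and chr11:94824357-94824537 (build mm9, as are all positions below). The second covers 181 genomic bases with 60, so it crosses an intron of 121 bases if it has a single gap. Sgce, the closest relative of Sgca, has a probe of the same kind, which covers 2441 genomic bases on chromosome 6. The 5′ to 3′ sequences of these probes and of the second Sgce probe, whose values differ from those of the first, are as follows.
Sgca A_55_P2007384: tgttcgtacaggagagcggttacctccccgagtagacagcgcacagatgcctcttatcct
Sgca A_66_P115281: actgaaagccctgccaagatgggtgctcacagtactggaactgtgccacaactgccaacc
Sgce A_52_P27864: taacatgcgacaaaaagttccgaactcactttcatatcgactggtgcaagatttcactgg
Sgce A_51_P311137: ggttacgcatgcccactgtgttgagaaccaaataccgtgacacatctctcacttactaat

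Values below are log2 processed signals minus the array's 75th percentile, so that 0 is the signal of a probe at that percentile, and levels of different probes are not compared. By probe A_55_P2007384, Sgca had -4.19, -4.81 and -4.31 on KO arrays, against -2.52, -2.29 and -2.26 on WT arrays. All KO values lay below all WT values, and the probe stood well above background on all 3 WT arrays and on 0 of 3 KO arrays. Of all tested probes, 1.97% were above background on no KO array. The means were -4.43 ± 0.33 in KO and -2.36 ± 0.14 in WT (SD, n = 3 each), a measured log2 difference of -2.08. Because the KO signals are not well above background, only a bound can be given. On this scale the probe read at least 2.94-fold lower in KO. The bound sets each KO array at the higher of the probe's own signal and the detection floor. That floor is the lowest signal that any well-detected probe had there, which was -4.15, -3.99 and -3.60 on the 3 KO arrays. It is no strict limit, since undetected probes can read above it, as Utrn probe A_55_P2733372 did in KO replicate 3 (-3.35). The bound also depends on the processing: the log2 difference was -1.14 with normexp background correction and quantile normalization together.

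By probe A_66_P115281, Sgca had -3.63, -5.71 and -4.64 on KO arrays, against -2.95, -2.64 and -2.74 on WT arrays. The groups again did not overlap. Of the KO arrays only that of replicate 1 was well above background, with a processed signal of 77.1. Its value of -3.63 compares with a detection floor of -4.15 on that array, where the other probe read -4.19. The KO values of this probe spread widely, with means of -4.66 ± 1.04 in KO and -2.78 ± 0.16 in WT (SD, n = 3 each) and a measured log2 difference of -1.88, which was -1.36 without KO replicate 2. Because 2 of the 3 KO values were not above background, the size of this difference is uncertain. Without the arrays with Xist signal the differences were -2.15 and -2.38 by the 2 probes. With normexp background correction (offset 50) and quantile normalization, changed together, they were -1.14 and -0.84.

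**Figure D1:**
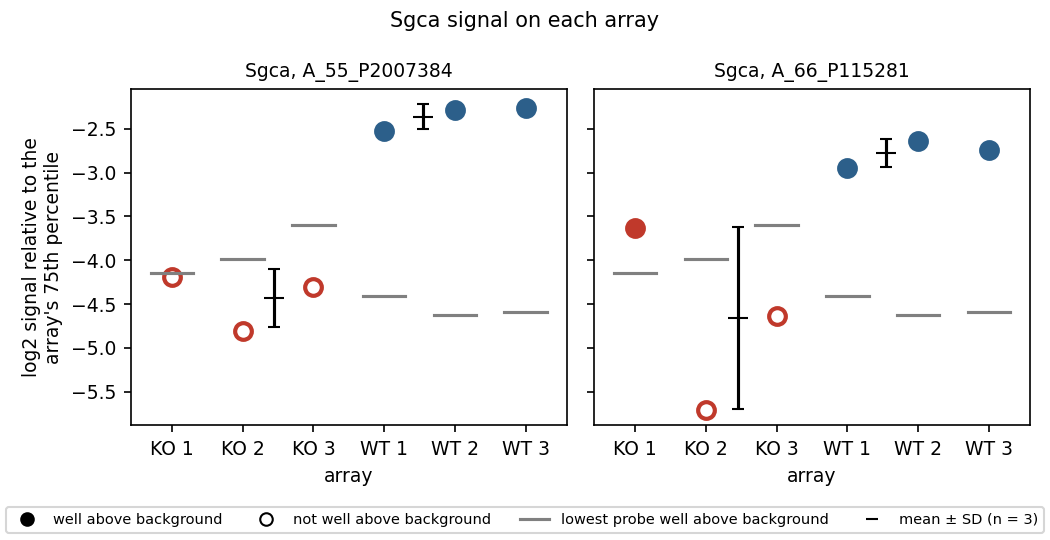
Log2 signal of the 2 Sgca probes on each array (y axis, relative to the array's 75th percentile), KO arrays in red and WT arrays in blue, with mean ± SD (n = 3) and the detection floor of each array as a grey line. Filled points are well above background: 1 of 6 KO points and all 6 WT points.

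For the other 7 genes, 15 of 27 probes could be tested, and 0 of the 15 passed limma at an adjusted p under 0.05. Over all 28606 tested probes 17 passed, or 0.0594%, with 0.0489% lower and 0.0105% higher in KO. At an unadjusted limma p under 0.05 there were 3 of the 15 (20.0%), against 15.5% of all tested probes, and of these 2 were lower in KO, against 7.28%, and 1 was higher, against 8.24%. The 3 probes were those of Sspn and of Dmd and the junction probe of Sgce. The KO values lay wholly below the WT values for 3 of the 15 probes, where 9.57% of all tested probes did so, and wholly above for 1, where 12.6% did. A negative difference was seen in 11 of the 15 probes and in 43.8% of all tested probes. The median difference was -0.13 for the 15 probes and 0.02 for all tested probes. Probes of a gene share their transcript and are not independent. In total 4 of the 17 tested probes of the complex, 2 of Sgca and 2 of Utrn, were tested only because they were well above background on all WT arrays.

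Beta-sarcoglycan, made from Sgcb, is found in the sarcoglycan unit of muscle and of many other tissues. Its probe had 1.49, 1.40 and 1.61 on KO arrays, against 1.53, 1.71 and 1.57 on WT arrays. The groups overlapped and the difference did not pass (log2 difference -0.10, SE 0.09, limma adjusted p = 0.637).

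Delta-sarcoglycan, made from Sgcd, pairs with beta-sarcoglycan when the unit is built. The RefSeq mRNA probe at chr11:46939058-46939117 had -1.64, -1.82 and -1.51 on KO arrays, against -1.42, -1.43 and -1.46 on WT arrays. All KO values lay below all WT values, by a margin too small to pass (log2 difference -0.22, SE 0.10, limma adjusted p = 0.344). The probe at the lowest tested position, chr11:46784687-46784746, differed by -0.27 on the log2 scale with overlapping groups (SE 0.12, limma adjusted p = 0.346). The probe at the highest position, chr11:47164656-47164715, had 0.07 (SE 0.10, limma adjusted p = 0.779), also with overlapping groups. The remaining Sgcd probe was above background on no array.

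Epsilon-sarcoglycan is the sarcoglycan whose human gene is mutated in myoclonus dystonia. The probe of Sgce within 1 block, A_51_P311137, had 1.99, 2.31 and 2.38 on KO arrays, against 2.34, 2.52 and 2.40 on WT arrays. The groups overlapped (log2 difference -0.19, SE 0.12, limma adjusted p = 0.504). The junction probe A_52_P27864 had -0.88, -0.58 and -0.52 on KO arrays, against 0.34, -0.34 and -0.39 on WT arrays. Its KO values all lay below its WT values, with WT replicate 1 far above the other 2 WT arrays (log2 difference -0.53, SE 0.21, limma adjusted p = 0.308). Without WT replicate 1 that difference was -0.29.

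Sarcospan, a small membrane protein with several membrane-spanning segments, holds the sarcoglycans to the rest of the complex. Sspn had 0.62, 0.77 and 0.94 on KO arrays, against 0.96, 1.30 and 1.13 on WT arrays. All KO values lay below all WT values, the nearest pair being KO replicate 3 and WT replicate 1, and the difference did not pass over all probes (log2 difference -0.35, SE 0.12, limma adjusted p = 0.256). It was -0.27 without the arrays with Xist signal.

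Dystroglycan, the laminin receptor at the centre of the complex, is made by cells of many tissues. Dag1 had 2.83, 2.55 and 2.91 on KO arrays, against 2.73, 2.69 and 2.94 on WT arrays. The groups overlapped almost fully (log2 difference -0.02, SE 0.12, limma adjusted p = 0.956).

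Dystrophin has a long muscle form and shorter forms from start sites further along the gene, which share the end of the transcript. Of the 10 Dmd probes, spread from chrX:80060259-80060318 to chrX:82451421-82451480 on the plus strand, 8 were above background on no array. A probe of the RefSeq mRNA, chrX:82449703-82449762, was detected above background on 1 of 3 KO arrays and on 0 of 3 WT arrays. The only probe that could be tested, at chrX:82300717-82300776, is assigned to an Ensembl transcript and not to the RefSeq mRNA. Whether it binds only Dmd transcripts was not tested. This probe had -3.74, -3.16 and -3.09 on KO arrays, against -3.84, -3.90 and -4.02 on WT arrays. All its KO values lay above all its WT values (log2 difference 0.59, SE 0.18, limma adjusted p = 0.201), but its processed signals were only 71.5 to 139.2 on KO arrays and 67.7 to 84.5 on WT arrays. Without the arrays with Xist signal its difference was 0.74, and with normexp background correction and quantile normalization together 0.34.

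Undetected probes read higher on KO arrays. Over the 22288 probes that no array detected above background, the median KO minus WT difference was 0.56, and 65.0% had all KO values above all WT values. The 8 dim Dmd probes had differences from 0.16 to 0.71. Among the 4071 tested probes with a mean level between -4 and -3, the range that holds the tested Dmd probe, the median difference was 0.02 and 11.2% had all KO values above all WT values. What part the dim signal has in the Dmd difference was not tested. In that range, which also holds both Sgca probes, 9.7% had all KO values below all WT values. Among the 770 tested probes between -5 and -4 the median difference was -0.18, and 21.7% had all KO values below all WT values. What part the dim signal has in the Sgca difference was not tested.

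**Figure D2:**
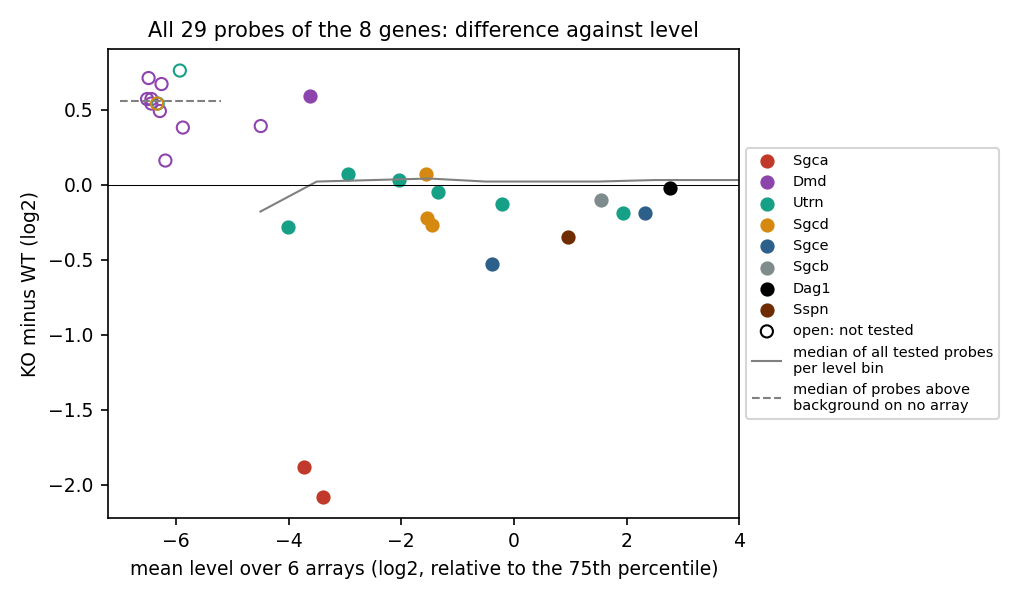
KO minus WT log2 difference (y axis) of all 29 probes of the 8 genes against their mean log2 level over the 6 arrays (x axis), with filled points for tested probes. Most dim Dmd probes lie near the dashed line at 0.56, the median of probes above background on no array, and the 2 Sgca probes lie at -2.08 and -1.88.

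Utrophin is the relative of dystrophin that most cells outside adult muscle fibres use, and it is anchored by the same dystroglycan. Of 8 Utrn probes, 6 were tested, and the 6 had overlapping groups. The RefSeq mRNA probe at chr10:12102004-12102063 had 1.67, 1.92 and 1.96 on KO arrays, against 1.91, 2.18 and 2.03 on WT arrays (log2 difference -0.19, SE 0.11, limma adjusted p = 0.484). The other 5 tested probes had differences from -0.28 to 0.07 (limma adjusted p from 0.441 to 0.937), and the remaining 2 probes were above background on no array. In all, 4 Utrn probes were well above background on all 6 arrays.

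**Figure D3:**
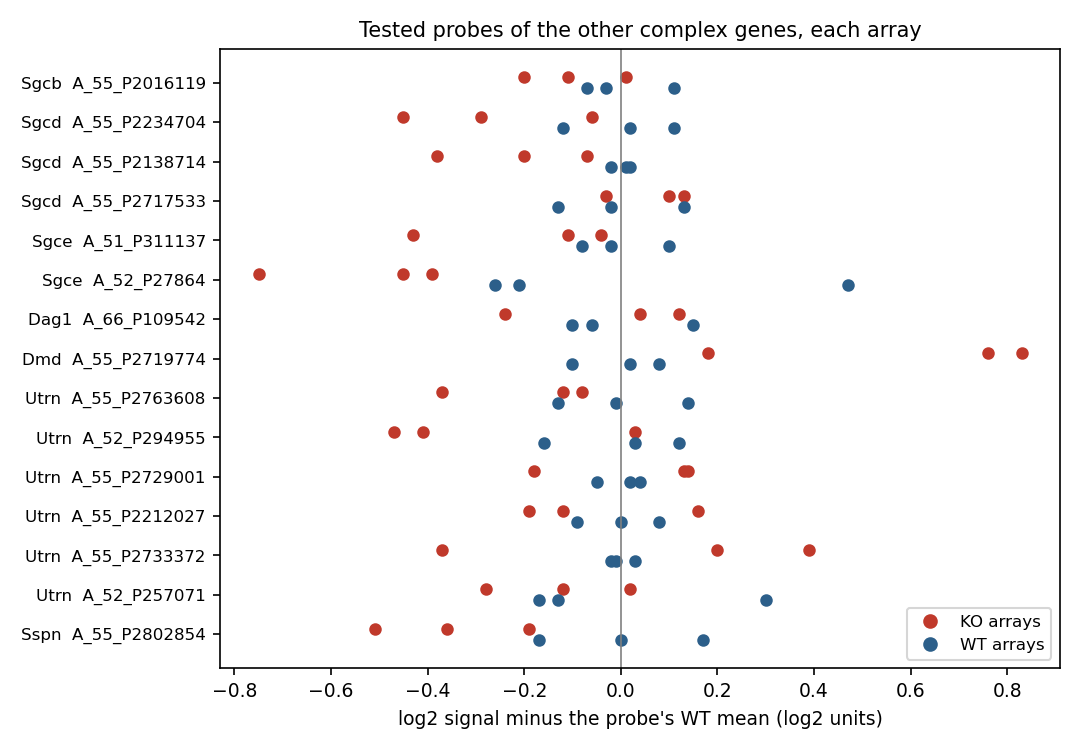
Log2 signal of each array minus the WT mean of the same probe (x axis, log2 units) for the 15 tested probes of the other 7 genes (rows), with KO arrays in red above WT arrays in blue. The probes of Sspn, the junction probe of Sgce and 1 Sgcd probe have all KO points left of all WT points, and the Dmd probe has them right of all WT points.

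The rest of the complex was read through lists of genes chosen by function. Of all 19139 tested gene names 12 passed, so 0 in a short list does not show that its genes are unchanged. The probe of zeta-sarcoglycan (Sgcz) was above background on no array.

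The dystrobrevins and syntrophins are cytoplasmic adaptors that bind dystrophin and utrophin. Of 9 genes of this kind 6 were tested and 0 passed, with a median difference of -0.04. Sntb1 (0.27), Drp2 (-0.15) and Dtna (-0.05) had overlapping groups.

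Among 8 matrix ligands of dystroglycan and of the sarcoglycans, 6 were tested and 0 passed, with a median difference of -0.29. Biglycan, a small proteoglycan that binds dystroglycan and sarcoglycans, came nearest. Bgn had 1.87, 1.70 and 1.57 on KO arrays, against 2.48, 2.43 and 2.45 on WT arrays by 1 probe (log2 difference -0.74, SE 0.09, limma adjusted p = 0.0592), and a difference of -0.02 by its other tested probe. Hspg2, which encodes perlecan, had -0.34 (SE 0.12, limma adjusted p = 0.268) without overlap, and Lama1 (-0.40) and Lama5 (0.30), laminin chains that dystroglycan binds, had overlapping groups.

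The sugars of dystroglycan are added by a chain of enzymes whose loss also causes muscular dystrophy. Of 18 such genes 16 were tested and 0 passed. Their median difference was -0.05, with a range from -0.25 to 0.04 by the brightest tested probe of each gene. A dimmer tested probe of Pomt2 lay outside that range with 0.54 (SE 0.31, limma adjusted p = 0.466). Rxylt1 had -0.25 and Gmppb -0.14 with overlapping groups, and Dolk had -0.10 with KO values wholly below WT values (limma adjusted p = 0.369, 0.539 and 0.569 in that order). Over all 19139 tested gene names, by the brightest tested probe of each, the median difference was 0.02.

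**Figure D4:**
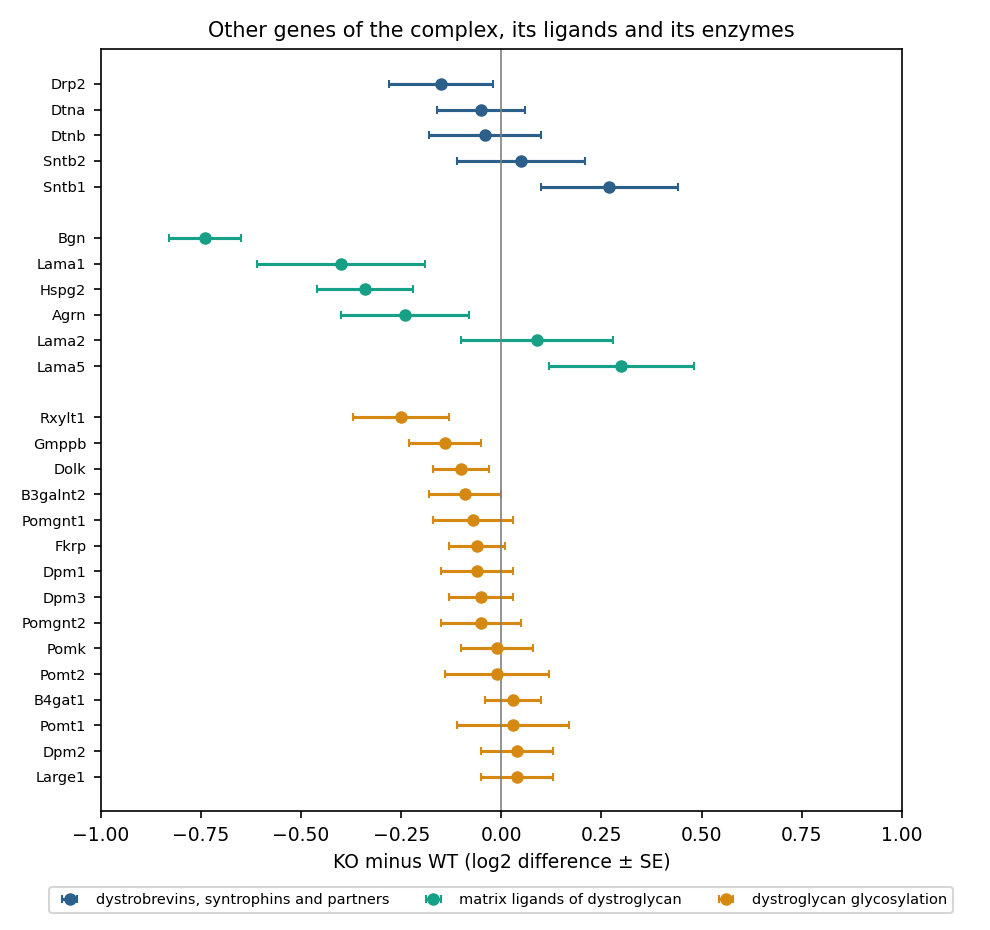
KO minus WT log2 difference with SE (x axis) for tested genes of 3 lists (rows, coloured by list), each by its brightest tested probe. Bgn at -0.74 lies farthest left of those drawn, and the glycosylation genes lie between -0.25 and 0.04.

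Sgca is known as a gene of striated muscle, so markers of other cells were read beside it. Of 30 skeletal muscle markers, 11 were tested and 11 were above background on no array, among them the muscle regulators Myod1, Myog and Pax7 and the muscle creatine kinase Ckm. The summed linear signal of the 11 tested markers ranged from 7.81 to 8.39 on KO arrays and from 7.51 to 8.66 on WT arrays, in units of the array's 75th percentile. Of the 11, 6 had a negative and 5 a positive difference, with a median of 0.00. Chrna1 was above background on 0 of 3 KO arrays and entered the test through the WT arrays alone, with a bound of at least 1.17-fold lower. Such entry favours lower KO values, so its limma adjusted p = 0.0496 is not taken as support. Itga7 (-0.61) and Tnnt3 (-0.27) had KO values wholly below WT values without passing, and Tnnt1 (0.25) had the highest difference of the list. All 17 osteoblast lineage markers were tested, 15 had a negative difference and the median was -0.78. KO values lay wholly below WT values for 14 of the 17, against 1931 of all 19139 tested gene names, and 2 of the 17 passed limma at an adjusted p under 0.05, against 12 of all. The 2 were Ibsp and Phospho1, a phosphatase of mineralisation. Phospho1 was above background on 0 of 3 KO arrays and entered the test through the WT arrays alone, so its call is not taken as support. Spp1 (0.25) and Sparc (0.03) had the 2 positive differences, though the other tested probe of Sparc had -0.70. Runx2 counts as negative by a probe with -1.24, while another tested probe of it had 0.07. The summed signal of all 17 osteoblast lineage markers ranged from 965 to 1282 on KO arrays and from 1363 to 1485 on WT arrays. That sum is made up mostly of the brightest genes, Col1a1, Col1a2, Sparc and Spp1. Col1a1 enters it by the probe with a difference of -0.90, the largest of its tested probes. Macrophage markers had a median of 0.12, with sums of 1263 to 1341 on KO arrays and 1177 to 1215 on WT arrays. Of the 14, 0 passed, and 11 had a positive and 3 a negative difference. KO values lay wholly above WT values for 3, against 2285 of all 19139 tested gene names, and 11 had overlapping groups. The macrophage sum is made up mostly of Lyz2, Ctss and Csf1r. Another tested probe of Lyz2 (-0.16) and of Csf1r (-0.30) had a negative difference. What part either list has in the Sgca difference was not tested.

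The genes whose profiles over the 6 arrays were most like that of Sgca were found by the root mean square difference between profiles centred on their means, over 19139 gene names. The search used the values of probe A_55_P2007384, for which the set was picked, so genes lower in KO were bound to come out. The KO values of that probe were not well above background, so likeness among the KO arrays carries little weight. They were Kcnf1, a potassium channel subunit (0.14), Col22a1, a collagen of tissue junctions (0.19), Chst13, a chondroitin sulfotransferase (0.19), B4galnt2, a glycosyltransferase (0.21), and Ibsp, bone sialoprotein (0.21). Col22a1 had 1.72, 0.60 and 1.17 on KO arrays, against 2.95, 3.51 and 3.25 on WT arrays. Ibsp had 3.70, 3.31 and 3.72 on KO arrays, against 5.13, 5.57 and 5.23 on WT arrays. Of the 5, Chst13 was detected above background on 1 of 3 KO arrays and Kcnf1 on 0 of 3. B4galnt2 had -2.10, -2.86 and -2.56 on KO arrays, against -1.07, -0.43 and -0.66 on WT arrays, and it lies on chromosome 11 too, at chr11:95724942-95725001.

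Sgca and Col1a1 face each other on opposite strands, and the nearest Col1a1 probe lies 10.1 kb from the Sgca probes. Col1a1 encodes the main chain of bone collagen. That probe had 7.56, 6.70 and 7.45 on KO arrays, against 8.07, 8.14 and 8.20 on WT arrays (log2 difference -0.90, SE 0.22, limma adjusted p = 0.141), while 2 tested Col1a1 probes 11.2 kb away had -0.21 and -0.14 with overlapping groups. On the other side, the Hils1 probe 5.0 kb away was above background on no array, and Ppp1r9b, a scaffold of actin-rich structures 43.5 kb away, had a difference of 0.03.

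Within 500 kb on either side, leaving out Sgca, 36 of 58 probes were tested and 0 passed, against 0.0594% of all tested probes. So low a share means that 0 does not show these probes to be unchanged. Their median difference was -0.05. KO values lay wholly below WT values for 8 of the 36 (22.2%), against 9.57% of all tested probes, and wholly above for 3 (8.33%), against 12.6%. The 3 were Eme1 (0.43), 1 of 2 Kat7 probes (0.14) and AK047447 (0.28). Of the 8, CA871375 and Dlx4 were above background on 0 of 3 KO arrays and entered the test through the WT arrays alone. Such entry favours lower KO values, so their place in the count and their p-values are not taken as support. The 8 lay from -471.4 kb to 177.2 kb from the Sgca probes. Dlx3, a homeobox gene of bone and skin 161.7 kb away, had 1.20, 1.06 and 1.26 on KO arrays, against 1.80, 1.78 and 1.75 on WT arrays (log2 difference -0.60, SE 0.08, limma adjusted p = 0.0592). Dlx4, its neighbour, had a bound of at least 1.36-fold lower between group means (limma adjusted p = 0.292). Its groups were barely apart, with -3.63 in KO replicate 3 and -3.61 in WT replicate 3, so no decrease is established. Samd14 (-0.29), 1 of 2 Itga3 probes (-0.21) and 1 of 2 Lrrc59 probes (-0.37) had KO values wholly below WT values without passing. Epn3 had a difference of -0.72 (limma adjusted p = 0.0932), and CA871375 had a bound of at least 1.28-fold lower (limma adjusted p = 0.0592).

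**Figure D5:**
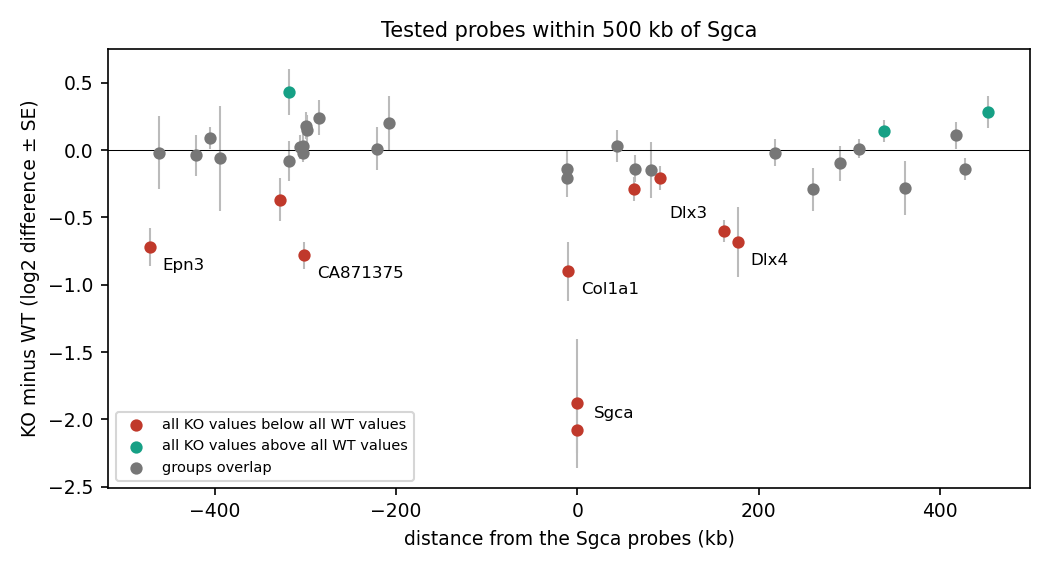
KO minus WT log2 difference with SE (y axis) of each tested probe against its distance from the Sgca probes in kb (x axis). The 2 Sgca probes at 0 kb lie at -2.08 and -1.88, and the 36 other tested probes lie between -0.90 and 0.43.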

How the data were processed

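The intensity values deposited by the authors are, per the file headers, the background-subtracted processed signal, mean signal and median background of Agilent Feature Extraction 10.7.1.1, while the submitters' processing notes name version 9.1. The authors' deposited series table holds log2 values with the same sorted values in each column, as quantile normalization gives. Groups and replicate numbers come from the titles. For each array, log2 of the processed signal minus its 75th percentile over 59305 non-control spots was taken, outlier spots, of which an array had 49 to 131, were dropped, and repeated spots were averaged per probe. Tests covered probes with 2 or more values in both groups that were well above background on every array of KO or of WT (for repeated spots, in a share of 0.5 or more). KO minus WT was fitted for 28606 probes by limma 3.58.1 under R 4.3.3 (functions lmFit and eBayes, a two-sided test, 4 residual and 2.65 prior degrees of freedom) with Benjamini-Hochberg adjustment over all of them. A listed gene is represented by the tested probe that was brightest on average. Named are every probe of the 8 genes, up to 4 genes per complex list with the smallest p, genes within 500 kb of Sgca and the 5 most alike to it; some genes of these lists are not reported here, though the lists' counts include them; other names were chosen after their values were seen. The genes and lists were chosen with earlier results of these data known. On simulated data for KO against WT with 28606 probes, 137 of 200 probes lowered by 1 log2 unit and 192 of 200 lowered by 2 were recovered, with 7 and 15 false calls. Whether the measured data allow the same recovery was not tested. Phex (log2 difference -2.61, SE 0.50, limma adjusted p = 0.0932) and Dmp1 (-2.54, SE 0.64, limma adjusted p = 0.146) did not pass. Ibsp, with a smaller spread, did (-1.73, SE 0.16, limma adjusted p = 0.0496). A gene that did not pass may therefore still differ by more than 2 log2 units. Alternatives were other normalizations, filters, variance models and terms, the authors' table and the removal of each array. The number of arrays limits the precision.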

Additional observations from a re-analysis of the deposited data

How the results depend on the processing

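For the 7 genes beside Sgca, the count of probes that passed limma was 0 in the main setting and under each of the 16 alternatives, with 1 to 10 probes at an unadjusted p under 0.05. Over all probes the count was 17. Under normexp plus quantile normalization 239 passed, under median centring 101, under quantile normalization of the processed signal 32, under a variance trend 220, and among probes detected on all 6 arrays 9. It was 0 without the filter on dim probes (18002 at an unadjusted limma p under 0.05), 0 in a fit blocked on replicate number (4647 at that unadjusted p) and 0 when Xist signal was a term (4616). Leaving out 1 array gave 2 to 31, the lowest being 2 without WT replicate 1 and 4 without WT replicate 2, and the highest 31 without WT replicate 3. The cause of these shifts was not tested. Among the other complex, ligand and glycosylation probes the count was 0, and it was 1, the Bgn probe, under normexp plus quantile normalization (limma adjusted p = 0.0436), median centring (0.0481) and a variance trend (0.0291). Both Sgca differences stayed negative in the 15 alternatives that held them, from -2.20 to -1.14 and from -2.40 to -0.84. With probes above background on all arrays they were not tested. Differences close to 0 changed sign: Dag1 had 0.02 and 3 Utrn probes 0.03, 0.01 and -0.00045 without the arrays with Xist signal, and a further Utrn probe -0.00089 with median centring. Without 1 array, Dag1 ranged from -0.10 to 0.09, and the Utrn probes from -0.03 to 0.13, -0.15 to 0.02, -0.09 to 0.29 and -0.22 to 0.02. A pairing by replicate number was not evident: same-numbered KO and WT samples deviated together with correlations of 0.056, 0.154 and -0.032 over 28598 probes. Differently numbered samples had correlations from -0.241 to 0.185. With 3 samples per group these values cannot exclude a pairing. The replicate numbers also mark the slide column. A slide or scan block could not be fitted because there was 1 of each. Signal over background limits Dmd, and Sgca in KO.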

Other observations

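Sarcoglycans other than Sgca are also made by smooth muscle and Schwann cells, whose markers were read in the same way. Of 11 smooth muscle and pericyte markers 9 were tested, with a median KO minus WT difference of 0.02. Cspg4, the NG2 proteoglycan of pericytes, stood apart with 0.80, -0.48 and 0.69 on KO arrays, against 1.73, 2.05 and 1.91 on WT arrays (log2 difference -1.56, SE 0.33, limma adjusted p = 0.110). The contractile genes Acta2 (0.06), Tagln (0.10) and Cnn1 (0.19) had overlapping groups. Of 8 Schwann cell markers 6 were tested, with a median of 0.11. Of 6 cardiac markers 1 was tested (Nppa, 0.43), and of 7 endothelial markers 4 were, with a median of 0.01.

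Among 11 stromal progenitor markers, all tested, the median was -0.08. Nt5e, which encodes CD73, had -1.08, -1.70 and -0.87 on KO arrays, against -0.10, 0.27 and -0.18 on WT arrays (log2 difference -1.21, SE 0.23, limma adjusted p = 0.0932). Grem1, a BMP antagonist, had 2.40, 2.52 and 2.19 on KO arrays, against 1.77, 1.89 and 1.71 on WT arrays (log2 difference 0.58, SE 0.11, limma adjusted p = 0.0907). These markers were named after their values were seen.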
